A study of Mus musculus with 6 samples.

Results

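The miR-23/27/24 microRNAs come from 2 paralogous clusters, here called a and b, and their 5 main arms are mmu-miR-23a and mmu-miR-27a (a cluster), mmu-miR-23b and mmu-miR-27b (b cluster) and mmu-miR-24, which both clusters encode. They were chosen by name, as the array annotation gives it. No measured value entered that rule, but earlier results of these data were known when it was set. All 5 were found among the 690 mouse microRNAs (miRNAs) of the array, with 10 of its 1928 probes, 2 probes per miRNA, and all 5 belonged to the 226 miRNAs bright enough to be tested. Their levels were measured in microdissected cartilage of femoral growth plates from C57BL/6 mice at 12 days of age, for which the labels name no treatment. The samples were 6 one-colour microarrays, 2 each from the proliferative, the prehypertrophic and the hypertrophic zone. The material of 5 growth plates was pooled for each array, which received 100 ng of total RNA labelled with Cy3, and the probes follow miRBase version 14. The design text calls the 2 hybridisations independent but gives no animal for any pool, so p-values measure only the spread between these samples. RNA of all cells in a dissected zone was read together, so that fewer cells of a type and less RNA per cell cannot be told apart.

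In the growth plate, chondrocytes divide in columns in the proliferative zone, leave the cell cycle in the prehypertrophic zone and swell in the hypertrophic zone, where their matrix is opened to vessels and bone-forming cells. The 3 miRNAs of each cluster are cut from 1 long primary transcript and then loaded singly into Argonaute, where the seed near the 5′ end pairs with target mRNAs and lowers their translation and stability. In skeletal cells miR-27 is known to target Mmp13, the collagenase of hypertrophic cartilage, the a cluster is known as a target of Runx2 repression during osteoblast differentiation, and miR-24 is known as a regulator of cell cycle and cell cycle inhibitor genes. Members of the family are also abundant in endothelial and blood cells.

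The RefSeq tables (mouse build GRCm38.p6) held a mature sequence for 4 of the 5 members, which are shown because the a and b copies can be told apart on an array only by the bases in which they differ. mmu-miR-23b was not matched. Sequences run 5′ to 3′, and capitals mark the seed (bases 2 to 8).
mmu-miR-23a: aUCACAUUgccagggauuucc
mmu-miR-27a: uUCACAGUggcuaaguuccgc
mmu-miR-27b: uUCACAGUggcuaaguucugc
mmu-miR-24: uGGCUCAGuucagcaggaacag
The first lies at chr8:84208563-84208583, miR-27a at chr8:84208727-84208747 and miR-27b at chr13:63300760-63300780, all on the plus strand. The same miR-24 sequence lies at chr8:84208875-84208896 and at chr13:63301251-63301272. miR-27a and miR-27b share their seed and all other bases except 1, C19U, counted from the 5′ end of miR-27a. These 4 mature miRNAs carry 3 distinct seeds, and of the 4 other RefSeq mouse names with one of these seeds (mmu-miR-5124b, mmu-miR-6369, mmu-miR-6410 and mmu-miR-6413) 0 were on the array.

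The hairpins of the a cluster, Mir23a, Mir27a and Mir24-2, span 404 bases of chromosome 8 (chr8:84208518-84208921) and overlap no other gene in RefSeq except Mir3074-2, a miRNA annotated on the Mir24-2 hairpin. Those of the b cluster, Mir23b, Mir27b and Mir24-1, span 792 bases of chromosome 13 (chr13:63300484-63301275) and lie within the span of Aopep, a gene for an aminopeptidase, with Mir3074-1 on the Mir24-1 hairpin. The mature miR-24 is identical from both loci, so its probes cannot tell the clusters apart. Its hairpins differ in the other arm, and those 2 arms are shown here because they could have separated the loci. The first 16 bases are identical, and capitals mark the rest, which differ in length and in part of their bases.
mmu-miR-24-1*: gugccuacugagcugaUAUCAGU
mmu-miR-24-2*: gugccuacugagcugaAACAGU
Of the 6 other arms of the clusters, 4 were on the array (mmu-miR-27a*, mmu-miR-27b*, mmu-miR-24-1* and mmu-miR-24-2*), with 12 probes, of which 0 were well above background on any array. The scanner software marks each spot that stands well above background, and a probe was counted so when the majority of its usable spots had the mark. Even single spots had it rarely, for 2 of 119 spots of mmu-miR-27b* and 0 of 112 to 118 spots of each of the other 3 arms. The share of miR-24 that came from either locus was therefore not measured.

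Signals below are log2 values after each array was scaled to the 75th percentile of its detected probes, with dim signals raised to a floor of 3.66, and each miRNA is represented by its brightest probe. Between 24.2% and 27.9% of the miRNA spots of an array were well above background and none was saturated. Brightness differs between probes for reasons of design, so no level of one member is ranked against that of another, only its zones among themselves.

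miR-23a, the leading miRNA of the a cluster, read 8.26 and 7.69 on the proliferative arrays, 8.05 and 8.36 on the prehypertrophic arrays and 8.01 and 8.33 on the hypertrophic arrays. The 3 zones overlapped, and of the pairs within a zone the proliferative arrays lay farthest apart. Its zone means were 7.98 ± 0.40, 8.21 ± 0.22 and 8.17 ± 0.22 (SD, n = 2 each). Its other probe was dimmer, with values from 5.84 to 6.54, and its zones overlapped too.

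miR-27a, the other miRNA of the a cluster and carrier of the miR-27 seed, read 6.45 and 5.79 in the proliferative zone, 7.01 and 7.10 in the prehypertrophic zone and 6.60 and 7.20 in the hypertrophic zone. Both proliferative arrays lay below the other 4, while the later zones overlapped. The zone means were 6.12 ± 0.46, 7.06 ± 0.063 and 6.90 ± 0.42 (SD, n = 2 each). The second probe showed the same placing at a dimmer level, with 4.17 and the floor in the proliferative zone, 4.96 and 5.15 in the prehypertrophic zone and 4.45 and 5.26 in the hypertrophic zone. On the second proliferative array 0 of its 10 spots were well above background.

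miR-23b, the leading miRNA of the b cluster, read 8.12 and 7.38 in the proliferative zone, 7.35 and 7.48 in the prehypertrophic zone and 6.99 and 7.21 in the hypertrophic zone. Both hypertrophic arrays lay below the other 4, and the first proliferative array lay above all others. The zone means were 7.75 ± 0.52, 7.42 ± 0.093 and 7.10 ± 0.16 (SD, n = 2 each). Replicate spots of this probe varied little within an array (coefficient of variation 1.72% to 9.0%). The second probe gave 6.34 and 6.03, then 6.00 and 6.21, then 5.93 and 6.00 in the same order of zones. There, too, both hypertrophic arrays lay below the other 4, but the second hypertrophic array (6.002) and the first prehypertrophic array (6.004) were nearly level.

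miR-27b, which shares its seed with miR-27a, stood close to the floor. Its brighter probe read 5.02 and 3.96 in the proliferative zone, 4.53 and 4.46 in the prehypertrophic zone and 3.88 and 4.58 in the hypertrophic zone. The zones overlapped, with means of 4.49 ± 0.75, 4.50 ± 0.050 and 4.23 ± 0.50 (SD, n = 2 each). It was well above background on 5 of 6 arrays, the exception being the second proliferative array, where 3 of 10 spots were. Its spots varied by 9.16% to 20.9% within an array. The other probe of miR-27b was well above background on 0 of 6 arrays, stayed at the floor and was not tested.

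miR-24, the member common to both clusters, read 7.41 and 6.72 in the proliferative zone, 7.22 and 7.26 in the prehypertrophic zone and 6.87 and 7.19 in the hypertrophic zone. The hypertrophic arrays lay just below the prehypertrophic ones, and both lay inside the range of the proliferative pair. Zone means were 7.07 ± 0.49, 7.24 ± 0.030 and 7.03 ± 0.23 (SD, n = 2 each). Its second probe read between 5.61 and 6.38, with all 3 zones overlapping.

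**Figure D1:**
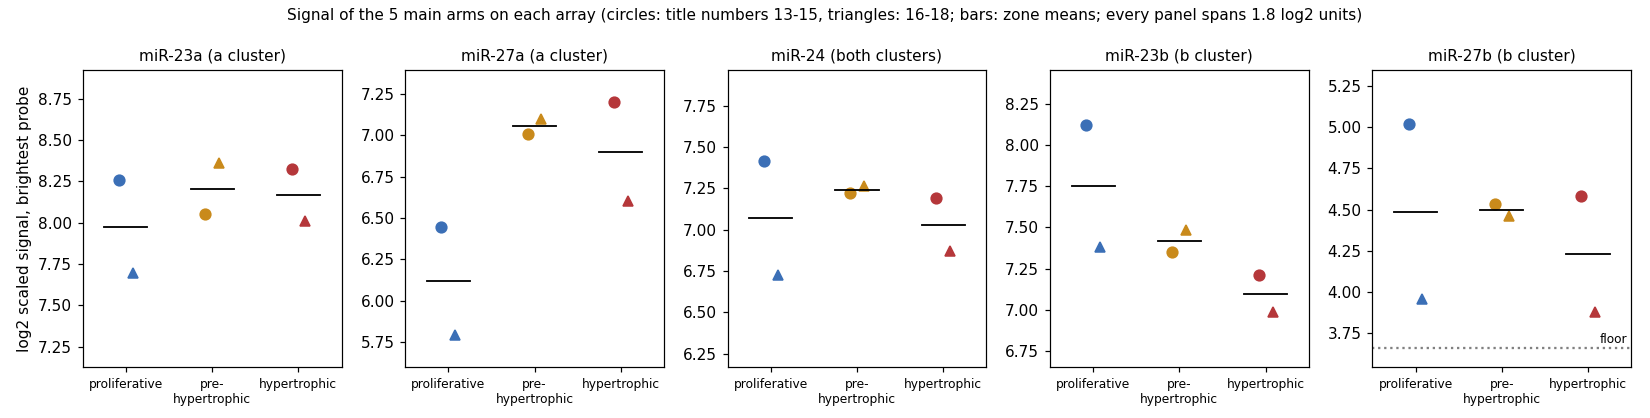
Log2 scaled signal of the brightest probe of each member (vertical axis) by zone, 1 point per array, with bars at zone means, every panel covering a span of the same height. Circles are arrays with title numbers 13 to 15 and triangles those with 16 to 18. Both proliferative arrays lie lowest for miR-27a (5.79 and 6.45), both hypertrophic arrays lie lowest for miR-23b (6.99 and 7.21), and the zones overlap for miR-23a and miR-27b.

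The question the zones pose is how each miRNA differs as chondrocytes mature. Fitted over all 6 arrays with limma and adjusted by Benjamini-Hochberg over the 226 tested miRNAs, 0 of the 5 members passed the threshold of 0.05 in the hypertrophic against the proliferative zone, where 14.6% of tested miRNAs passed. Unadjusted p-values lay under 0.05 for 2 of them, beside 26.5% of tested miRNAs. miR-27a had a log2 fold change of 0.78 (SE 0.31, 95% interval 0.097 to 1.47), a level 1.72-fold higher in the hypertrophic zone (limma adjusted p = 0.13). miR-23b had one of -0.65 (SE 0.30, 95% interval -1.31 to -0.000204), 1.57-fold lower (limma adjusted p = 0.188).

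The remaining 3 members had smaller differences between these outer zones. The log2 fold change of miR-23a was 0.19 (95% interval -0.44 to 0.83, limma adjusted p = 0.797). That of miR-24 was -0.039 (-0.69 to 0.61, limma adjusted p = 0.945) and that of miR-27b was -0.26 (-1.07 to 0.55, limma adjusted p = 0.79). Each of these intervals holds changes in either direction. In 2 of the 5 members, miR-27a and miR-23b, the hypertrophic and proliferative arrays did not overlap, beside 46.9% of all tested miRNAs.

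Against the proliferative zone, the prehypertrophic zone gave 0 of 5 members past the threshold, with 2.21% of tested miRNAs past it. Here miR-27a was 1.91-fold higher (log2 fold change 0.93, SE 0.31, 95% interval 0.25 to 1.62, limma adjusted p = 0.17). It was the 1 member whose arrays did not overlap between these zones, as for 36.3% of tested miRNAs. The others had log2 fold changes of 0.23 for miR-23a, 0.17 for miR-24, 0.0092 for miR-27b and -0.33 for miR-23b, with limma adjusted p from 0.684 to 1. The same order of the 5 members, from miR-27a down through miR-23a, miR-24 and miR-27b to miR-23b, appeared in both contrasts, which share the proliferative arrays.

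Between the hypertrophic and the prehypertrophic zone 0 of 5 members passed, with 1.33% of tested miRNAs past the threshold. All 5 log2 fold changes were negative, from -0.32 for miR-23b to -0.039 for miR-23a, and limma adjusted p ran from 0.509 to 0.916. That of miR-23a turned positive with quantile normalization (0.15) and without scaling (0.10). The arrays of these zones did not overlap for miR-23b and miR-24, against 66.8% of tested miRNAs. Slide rows are not given by the sample labels and were inferred from position numbers of the arrays. By these, those zones lay in different rows of the slide (hypertrophic in row 1, prehypertrophic in row 2). Only the proliferative pair, with 1 array in each row, links the rows. With slide row as a block the 5 values were larger, -0.60 for miR-23a, -0.81 for miR-27a, -0.90 for miR-24, -1.06 for miR-23b and -1.33 for miR-27b, with limma adjusted p from 0.116 to 0.273. An F test over the 3 zones passed for 0 of the 5 as well (7.96% of tested miRNAs passed), with miR-27a having the smallest limma adjusted p of 0.125.

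**Figure D2:**
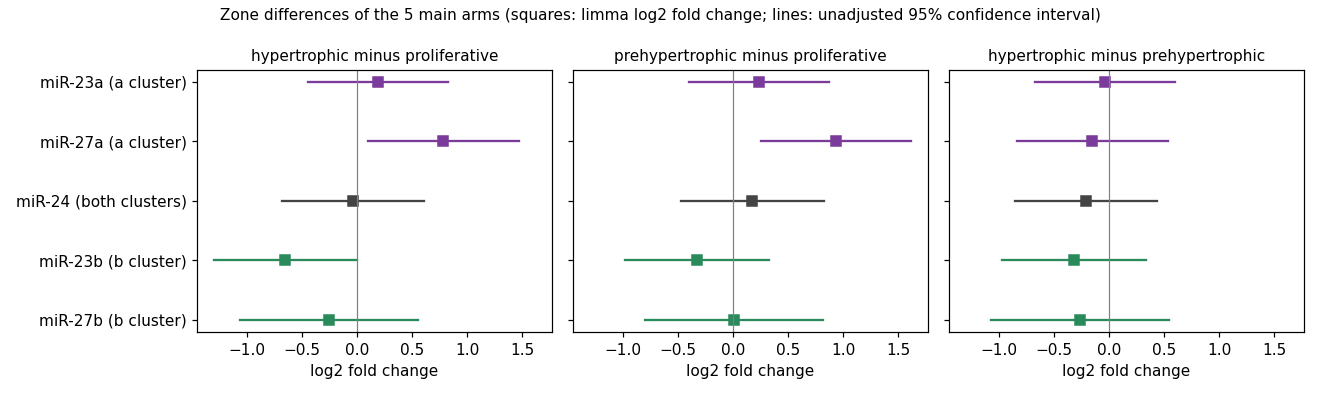
Log2 fold change of each member (horizontal axis) from limma for the 3 zone contrasts, with lines for the unadjusted 95% confidence interval; purple marks the a cluster, green the b cluster and grey miR-24. Against the proliferative zone, the interval of miR-27a lies above 0 in both contrasts (0.78 and 0.93), that of miR-23b ends just below 0 in the hypertrophic against proliferative contrast, and every other interval holds 0.

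Medians of the 5 members' log2 fold changes were -0.039, 0.17 and -0.21 in the hypertrophic against the proliferative, the prehypertrophic against the proliferative and the hypertrophic against the prehypertrophic contrast. Over all tested miRNAs they were -0.00166, -0.14 and -0.026. A median near 0 between the outer zones thus covered members with opposite signs.

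The arrays form 2 runs of title numbers, 13 to 15 and 16 to 18, each with 1 array per zone. For miR-27a the hypertrophic against proliferative log2 difference was 0.75 in the first run and 0.81 in the second. miR-23b gave -0.91 and -0.40, negative in both. For miR-27a and miR-23b the same sign in both runs follows from arrays that did not overlap between these zones. miR-23a gave 0.068 and 0.31, miR-24 gave -0.22 and 0.14, and miR-27b gave -0.44 and -0.079, so that miR-24 changed sign between runs.

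For the prehypertrophic against proliferative difference, miR-27a gave 0.56 and 1.31 in the 2 runs, a sign fixed by arrays that did not overlap. It was the only one of the 5 with the same sign in both runs: miR-23a, miR-23b, miR-24 and miR-27b were negative in the first run (-0.20, -0.77, -0.19 and -0.48) and positive in the second (0.67, 0.10, 0.54 and 0.50). The proliferative arrays differed in the same direction for every member, the first being the brighter. The first lay in slide row 1 with the hypertrophic arrays and the second in row 2 with the prehypertrophic arrays.

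With slide row as a block, miR-23b passed the threshold between the hypertrophic and proliferative zones (log2 fold change -1.02, limma adjusted p = 0.032). It was 1 of 45 miRNAs, out of 226 tested, that passed in that fit. That fit sets the hypertrophic arrays against the first proliferative array alone, the one with the highest miR-23b signal. Without that array the difference was -0.29 (limma adjusted p = 0.548), and without the second it was -0.96 (limma adjusted p = 0.0691). For miR-27a the same contrast was 0.45 with the row block. It was 1.11 when the first proliferative array was left out, 0.52 when the second was, and 0.48 when the second hypertrophic array was, and it passed in none of these fits. In the prehypertrophic zone miR-27a stood 1.26 above the proliferative array of the same row.

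Both measured probes of a miRNA gave log2 fold changes of the same sign between the hypertrophic and proliferative zones, except for miR-24. In a fit over the 446 probes bright enough to be tested 0 of the 9 measured member probes passed, against 8.97% of probes in the hypertrophic against proliferative contrast. With slide row as a block 1 passed there, the brighter miR-23b probe, A_54_P1007 (-1.02, limma adjusted p = 0.0422). The share of all probes passing in that fit was not counted, but of the 226 tested miRNAs 45 passed in it. In the other contrasts 0 of 9 passed as well, against 2.24% (prehypertrophic against proliferative) and 0.897% (hypertrophic against prehypertrophic). The dimmer probe of miR-27a, A_54_P1320, gave larger differences than the brighter one, 0.94 in the hypertrophic zone (limma adjusted p = 0.089) and 1.14 in the prehypertrophic zone (limma adjusted p = 0.137), where its proliferative values rested in part on the floor. With 0.5 times the floor both differences passed (1.14 and 1.34, limma adjusted p = 0.0217 and 0.0143), and here, too, the share of all probes passing was not counted. Of the 225 miRNAs tested with that floor, 41 passed in the first of these contrasts and 9 in the second. With 2 times the floor the differences of this probe were 0.30 and 0.39 (limma adjusted p = 0.692 and 0.911). With a background correction by normexp on the median signal they were 0.046 and 0.12, and neither passed. The dimmer probe of miR-23b, A_54_P1008, gave -0.22 in the hypertrophic zone (0.26 without scaling). That of miR-23a, A_54_P1311, gave 0.31 and that of miR-24, A_54_P1143, gave 0.23 where the brighter probe gave -0.039.

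The a cluster was then set against the b cluster within each array. The log2 signal of the b member was subtracted from that of its a paralogue, which removes any factor common to an array. The size of such a difference depends on the 2 probes and has no meaning as a ratio of molecules, so only its movement between zones is described.

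miR-23a minus miR-23b was 0.13 and 0.31 on the proliferative arrays, 0.70 and 0.87 on the prehypertrophic arrays and 1.02 and 1.11 on the hypertrophic arrays. The 3 zones did not overlap and stood in the order in which chondrocytes mature. Their means were 0.22 ± 0.12, 0.79 ± 0.12 and 1.07 ± 0.065 (SD, n = 2 each), against a pooled SD of 0.11. Among the 25425 pairs that the 226 tested miRNAs form, 11.6% had 3 zones in this order without overlap, rising or falling, so the order alone does not set this pair apart.

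From the proliferative to the hypertrophic zone, the difference between miR-23a and miR-23b moved by 0.85, a 1.8-fold shift of their signal ratio toward the a cluster. The movement was 0.98 in the first run of title numbers and 0.71 in the second, and 0.93 within slide row 1. Of this, 0.57 fell between the proliferative and prehypertrophic zones (0.57 and 0.56 in the runs, 0.48 within slide row 2) and 0.28 between the prehypertrophic and hypertrophic zones (0.41 and 0.15). With quantile normalization the first step was 0.36 and the second 0.45, so which step was the larger depended on the scaling. The pair moved the same way in both runs at each step, which follows from its zones not overlapping and adds nothing to it. The arrays of miR-23a and of miR-23b overlapped at the first step, and each miRNA changed sign between runs there.

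miR-27a minus miR-27b was 1.43 and 1.84 on the proliferative arrays, 2.48 and 2.64 on the prehypertrophic arrays and 2.73 and 2.62 on the hypertrophic arrays. Both proliferative arrays lay below the other 4, and the later zones overlapped. Means were 1.63 ± 0.29, 2.56 ± 0.11 and 2.67 ± 0.073 (SD, n = 2 each). All pairs of tested miRNAs placed both proliferative arrays on 1 side of the other 4 in 24.6% of cases, and kept hypertrophic and proliferative arrays apart in 56.8%, so these placings are common too.

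The difference between the miR-27 paralogues moved by 1.04 from the proliferative to the hypertrophic zone (2.06-fold; 1.19 and 0.89 in the runs, 1.24 within row 1). Nearly all of it, 0.93, lay between the proliferative and prehypertrophic zones (1.05 and 0.80 in the runs, 0.72 within row 2), with 0.11 between the prehypertrophic and hypertrophic zones. Without the second proliferative array, where miR-27b was not well above background, the first 2 values were 1.24 and 1.13. The miR-27 sequences differ at 1 base, and how much of either miRNA binds the other's probes was not tested. For the miR-23 pair such binding was not tested either, and its sequences could not be compared because mmu-miR-23b was not matched.

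**Figure D3:**
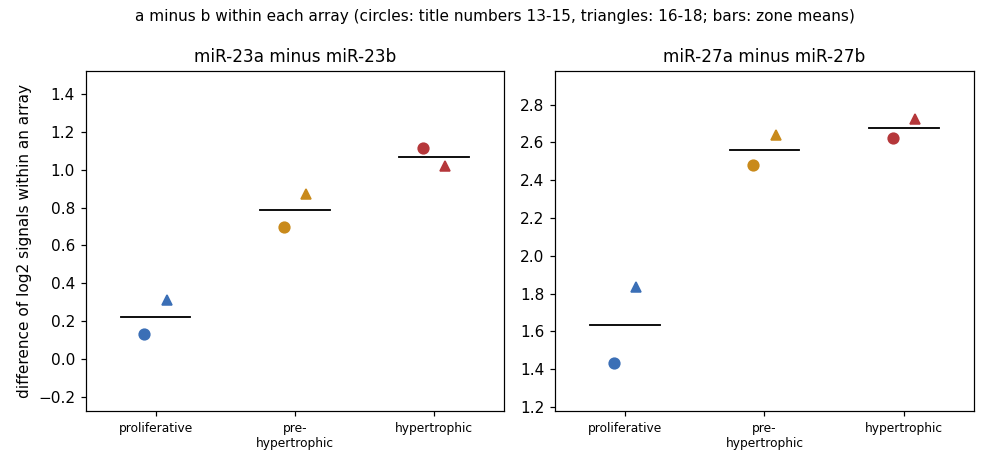
Log2 signal of the a member minus that of its b paralogue within each array (vertical axis) by zone, 1 point per array, with bars at zone means; circles are title numbers 13 to 15 and triangles 16 to 18. The miR-23 pair rises from 0.13 and 0.31 through 0.70 and 0.87 to 1.02 and 1.11, and the miR-27 pair stands at 1.43 and 1.84 in the proliferative zone against 2.48 to 2.73 in the other zones.

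With 2 arrays a zone an exact two-sided permutation test cannot give a p under 0.333, and for 3 zones it cannot go under 0.0667. The miR-23 pair reached both limits, in each of its zone contrasts and over the 3 zones. For the miR-27 pair the exact p was 0.333 in both contrasts with the proliferative zone, 0.667 between the later zones and 0.133 over the 3 zones. Adjusted over the 8 exact tests, p was 0.381 for 7 of them and 0.667 for the last, miR-27 between the later zones, so none passed and none could have.

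The same differences were taken for the other probes. All 4 pairs of a miR-23a probe with a miR-23b probe moved toward the a cluster from the proliferative to the hypertrophic zone, by 0.41 to 0.96, and from the proliferative to the prehypertrophic zone, by 0.30 to 0.57, with no overlap between the arrays of the zones compared. Among all pairs of tested miRNAs such placings were common, at 56.8% and, for the prehypertrophic against the proliferative zone, 41.4%. The larger values came with the brighter miR-23b probe and the smaller with the dimmer one. From the prehypertrophic to the hypertrophic zone the 4 pairs moved by 0.10 to 0.41, and 1 of them overlapped there (62.6% of all pairs of tested miRNAs did not). Against the 1 measured miR-27b probe, the 2 miR-27a probes moved by 1.04 and 1.2 to the hypertrophic zone and by 0.93 and 1.13 to the prehypertrophic zone. The larger values, from probe A_54_P1320, rest on the floor on the second proliferative array, where the miR-27b probe was not well above background either. Pairs of one miRNA share probes and arrays and are not replicates.

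**Figure D4:**
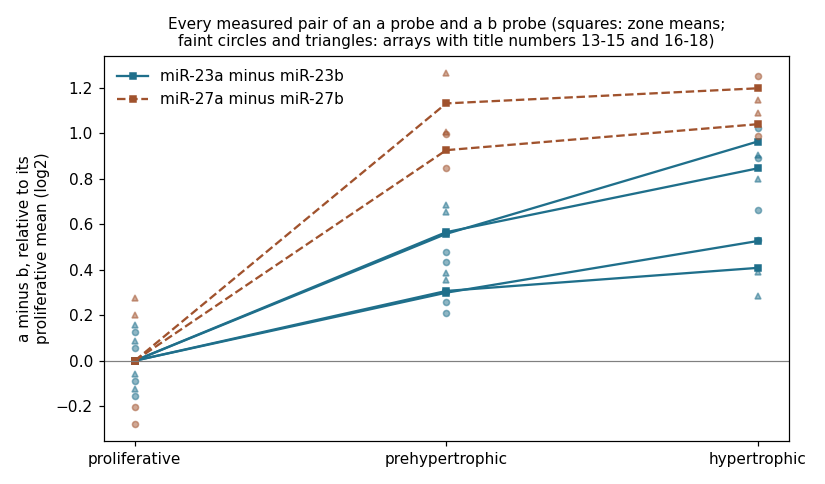
Difference between an a probe and a b probe, set to 0 at its proliferative mean (vertical axis, log2), for the 4 miR-23 pairs (solid) and the 2 measured miR-27 pairs (dashed); squares are zone means and faint points single arrays. The hypertrophic means lie at 0.41 to 0.96 for miR-23 and at 1.04 and 1.2 for miR-27, and the miR-27 lines are nearly level after the prehypertrophic zone.

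miR-24 was set against the other members in the same way. Its difference from miR-23a was the steadiest, with an SD of 0.14 over the 6 arrays and a movement of -0.23 from the proliferative to the hypertrophic zone. The difference from miR-27b had an SD of 0.20 and moved by 0.22. Those from miR-23b and miR-27a moved more and in opposite directions, by 0.61 and -0.82. By the brightest probes miR-24 thus lay between the a and the b members in its zone pattern. Its second probe gave 0.23 in the hypertrophic against the proliferative zone, between the miR-23a probes (0.19 and 0.31). In the prehypertrophic against the proliferative zone it gave 0.35, above both miR-23a probes (0.23 and 0.22).

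Over the 6 arrays the profile of miR-24 correlated with miR-27b at 0.941, with miR-23a at 0.848, with miR-23b at 0.634 and with miR-27a at 0.626 (Pearson r of log2 signals). Paralogues had lower values than cluster mates: r was 0.285 for miR-23a with miR-23b and 0.402 for miR-27a with miR-27b, against 0.811 for miR-23a with miR-27a and 0.778 for miR-23b with miR-27b. Across the clusters it was 0.7 for miR-23a with miR-27b and -0.198 for miR-27a with miR-23b. These 6 points share their arrays and their scaling, and the values describe these arrays only. Differences between these correlations were not tested.

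Among tested miRNAs outside the clusters, the profile most like miR-23a was that of miR-30b (r = 0.949, 6 arrays), followed by miR-19b and miR-30c. For miR-27a the nearest were miR-20b (0.972), miR-20a (0.922) and miR-503 (0.906). For miR-23b they were miR-196b and miR-652 (0.985 each) and miR-107 (0.982). The b member miR-27b and the common member miR-24 had the same nearest miRNA, miR-26a (0.977 and 0.971), followed by miR-26b and miR-106b for miR-27b and by miR-151-5p and miR-30b for miR-24. All these names were picked for the highest r among the tested miRNAs outside the clusters, so high values follow in part from that choice. Such likeness was not tested, and miR-27b stood close to the floor.

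Marker miRNAs of other cells also differed between zones. The chondrocyte list, with 4 of its 6 miRNAs well above background on all arrays, had a summed scaled signal of 6482 to 10392 in the proliferative, 6841 to 6939 in the prehypertrophic and 3917 to 4924 in the hypertrophic zone. The blood and marrow list, with 5 of 8 miRNAs well above background on no array, summed to 26.8 to 43.3, 45.2 to 47.3 and 265 to 290 in these zones. Of the 2 endothelial miRNAs, miR-126-3p cleared the background on both hypertrophic arrays only and the other on none, and the list summed to 34.7 to 47.2 there and to 0 elsewhere. Of 5 skeletal muscle miRNAs 4 were well above background on no array, and the sum, from miR-208b, was 153 to 158, 114 to 158 and 107 to 113.

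In the prehypertrophic zone the endothelial list summed to 0, as it did in the proliferative zone. The sums were taken without the floor, at which both endothelial miRNAs lay on these arrays. A sum of 0 thus stands for signals not well above background and is no measured absence. miR-451, the red blood cell miRNA of the blood and marrow list, read 4.84 and 4.74 in the prehypertrophic zone against 3.79 and the floor in the proliferative zone (log2 fold change 1.06, limma adjusted p = 0.0513). Another miRNA of that list, miR-486, read 4.18 on 1 proliferative array and lay at the floor on the other and on both prehypertrophic arrays. In the hypertrophic zone the blood and endothelial lists had higher sums and the chondrocyte list a lower sum than in the other zones. The blood sum was led by miR-451, at 7.82 and 7.99 there, while miR-486 read 4.01 and the floor. Against the proliferative zone miR-140, miR-140*, miR-455 and miR-675-3p had lower means (log2 fold changes -0.76, -0.98, -0.78 and -0.86). Their limma adjusted p were 0.13, 0.0534, 0.0579 and 0.0393, so only miR-675-3p passed the threshold. It lay at the floor on both hypertrophic arrays. Of the chondrocyte list miR-455* went the other way (log2 fold change 0.37, limma adjusted p = 0.488). The part of these cells in the values of the 5 members was not tested.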

How the data were processed

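The 5 members, the marker lists and the alternatives were chosen with earlier results of these data known. Per the file headers, Feature Extraction 10.7.3.1 made the deposited intensity values, of which the background-subtracted processed signal of each spot (linear scale) was used. A log2 table deposited by the authors matched, to within 1.28e-06, the scanner files' total signal of each miRNA on the log2 scale (with a minimum of 1) less 1 constant for the array. This fixes its scale, centring and direction. Column medians were -4.40 and -4.25 (proliferative), -4.46 and -4.45 (prehypertrophic) and -4.69 and -4.94 (hypertrophic).

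Control spots and 384 to 515 outlier spots of the 13800 miRNA spots per array were left out, and spots of a probe were averaged. Each array was divided by its 75th percentile over the 342 probes (17.7%) well above background on all 6 arrays and brought back to a common scale. The floor, 12.66 scaled units, came from the dimmest probe still well above background on each array (median of the 6). A miRNA was tested if its brightest probe was well above background throughout some zone, by lmFit and eBayes of limma 3.58.1 (R 4.3.3; 3 residual and 7.83 prior degrees of freedom) and a threshold of 0.05. The code was checked on simulated data. Within-array differences were tested by exact permutation over arrays. The number of arrays limits the precision. Replicates were numbered in accession order and not paired. The text names all members, their other arms, miRNAs sharing a seed, the 3 tested miRNAs most correlated with each member and the marker lists. Sequences and coordinates are RefSeq's.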

Additional observations from a re-analysis of the deposited data

How the results depend on the processing

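No member passed the threshold in any contrast or in the F test under the other scalings, floors, filters, probe summaries, the deposited table, outlier spots kept, the title run as a replicate block or leaving out any 1 array, with 1 exception: 1 member, miR-23b, passed between the hypertrophic and proliferative zones with slide row as a block (-1.02). The run numbers mark no stated batch, and that block, which left the members' values as they were, gave 0 calls too. Counts over all tested miRNAs moved more: 33 passed between these zones, against 11 with the 75th percentile of all probes, 12 with median scaling, 19 with quantile normalization, 15 without scaling, 18 with 2 times the floor, 20 with the mean of the probes or the deposited table, 1 without a filter and 1 to 36 without single arrays, while 36 passed with normexp, 41 with 0.5 times the floor, 45 with the row block and 46 with the run block. For the prehypertrophic against the proliferative zone 5 passed, against 0 to 11 in the other settings, and for the later zones 3, against 1 to 8. Log2 fold changes of tested miRNAs shifted from the main fit by a median of 0.48 and 0.34 without scaling (hypertrophic and prehypertrophic against proliferative). With median scaling these median shifts were 0.11 and 0.14. In the second of these contrasts the shift was 0.12 with the all-probe 75th percentile, 0.19 with the deposited table and -0.16 with the total signal. Between the later zones it was -0.21 with the deposited table and 0.17 with the total signal. A background correction planned on the mean signal was not run because the files used here hold no such column, and normexp on the median signal, chosen after seeing the data, took its place.

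The difference of miR-27a between the hypertrophic and proliferative zones stayed positive (0.41 to 1.26), as it did for the prehypertrophic zone (0.50 to 1.31), and that of miR-23b between the outer zones stayed negative (-1.02 to -0.17). The movement of miR-23a minus miR-23b between the outer zones was 0.68 with normexp and 0.69 with the mean of the probes, and 0.76 to 0.93 without single arrays. That of miR-27a minus miR-27b was 1.24 with quantile normalization, 0.73 with normexp and 0.84 to 1.24 without single arrays. Both stayed positive throughout.

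Signs turned in differences that ran from -0.33 (miR-23b) to 0.23 (miR-23a) in the main fit, both for the prehypertrophic against the proliferative zone. The cause was not tested. Between the hypertrophic and proliferative zones miR-24 was 0.074 with median scaling, 0.44 without scaling, 0.095 with the mean of the probes, 0.045 with the total signal, 0.019 with the deposited table and 0.000477 with outlier spots kept. miR-27b was 0.15 there without scaling, miR-23a was -0.090 with the row block and probe A_54_P1008 was 0.26 without scaling. Between the prehypertrophic and proliferative zones miR-23a was -0.013 with quantile normalization, miR-23b was 0.00335 without scaling and 0.035 with the row block, and miR-27b was -0.20 with normexp, -0.18 with 2 times the floor and -0.15 with the total signal. Probe A_54_P1008 was 0.046 with the 75th percentile of all probes, 0.059 with median scaling, 0.088 with quantile normalization, 0.26 without scaling and 0.081 with the row block. Between the later zones miR-23a was 0.15 with quantile normalization, 0.10 without scaling, 0.023 with the mean of the probes and 0.15 with the total signal, miR-27a was 0.00243 with the total signal, and miR-27a minus miR-27b was -0.15 with 2 times the floor and -0.043 with the mean of the probes.

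Without single arrays the outer-zone differences ran from -0.32 to 0.30 for miR-24, -0.72 to 0.27 for miR-27b, -0.024 to 0.47 for miR-23a and -0.021 to 0.48 for probe A_54_P1143. Those of the prehypertrophic against the proliferative zone ran from -0.61 to 0.027 for miR-23b, -0.072 to 0.51 for miR-24, -0.42 to 0.53 for miR-27b and -0.18 to 0.072 for probe A_54_P1008. Those of the later zones ran from -0.19 to 0.12 for miR-23a, -0.45 to 0.15 for miR-27a and -0.61 to 0.088 for miR-27b.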
